A study of Homo sapiens with 6 samples.

Results

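The genes described here encode the proteasome, its activators and the proteins that help to assemble it. They were chosen by name, as the protein-coding rows of the expression table whose symbol is PSM, a letter from A to G and a number. The table held 49 such rows among 16262 protein-coding rows and 26789 rows in all, and they stood for 47 genes. Each was compared between 3 dopamine-treated and 3 control samples. Both groups were cells of the human neuroblastoma line SK-N-SH, whose genotype is labelled Wild Type. Control cells received medium alone and the others medium with dopamine (DA) for 6 h, after which total RNA was depleted of ribosomal RNA and sequenced. The dopamine dose is printed in the labels with a unit that appears incomplete and is not interpreted here, and the series' design text names SH-SY5Y, a subline of SK-N-SH, as the treated cells. Nothing in the labels says that the 3 replicates of a group were separate cultures, so the p-values below measure a spread that may be technical.

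The proteasome is the protease that degrades most ubiquitin-tagged proteins. Its barrel, the 20S core, is built from rings of alpha subunits, which form the gate, and rings of beta subunits, some of which carry the cutting sites. The 19S cap recognises ubiquitin, unfolds the substrate with a ring of ATPases and feeds it into the barrel. In many cells the transcription factor NRF1 (gene NFE2L1) raises proteasome genes together when the protease is inhibited, and NRF2 (gene NFE2L2) raises some of them under oxidative or electrophilic stress.

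No proteasome gene passed the test of dopamine against control. Of the 47 genes, 45 had a mean of at least 1 FPKM (fragments per kilobase of gene, scaled to the size of the library) and were tested with limma on log2(FPKM + 0.5). At a Benjamini-Hochberg adjusted p of 0.05, 0 of 45 were called, against 12 of 11791 genes in the whole table (0.102%, of which the higher calls were 0.0848%). The lowest adjusted p of a member in limma was 0.11. The 45 genes had a median log2 difference of 0.08, and all genes tested also had 0.08. Between single genes the differences ran from -0.24 for PSMG3 to 0.61 for PSMC2. For scale, HMOX1, a stress-induced heme-degrading enzyme, went from 33.0 ± 4.74 FPKM without dopamine to 429 ± 39.5 FPKM with it (SD, n = 3 each), a log2 difference of 3.69 (limma adjusted p = 6.06e-07).

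Below that threshold the members were not evenly spread around 0. At an unadjusted limma p under 0.05, 17 of 45 were higher with dopamine (37.8%, against 24.4% of all genes tested) and 1 was lower (2.22%, against 8.05%). The 3 dopamine values all lay above the 3 control values in 19 genes (42.2%, against 24.4% of all genes) and all below in 3 genes (6.67%, against 14.1%). The mean of log2(FPKM + 0.5), the scale on which means are compared below, was higher with dopamine in 30 genes (66.7%, against 60.0%). The calls depended on the setting: without control replicate 1, limma called 14 of 45 members higher (31.1%, against 16.8% of all genes). Those 14 were PSMA1, PSMA2, PSMA3, PSMA4, PSMA5, PSMC1, PSMC2, PSMC6, PSMD1, PSMD5, PSMD7, PSMD10, PSMD14 and PSME4, with log2 differences from 0.34 to 0.70 and adjusted p from 0.0304 to 0.0491. With limma weights for sample quality, 14 of 45 were again called higher (31.1%, against 17.4% of all genes), with PSMB1, PSME2 and PSMG1 in place of PSMC6, PSMD14 and PSME4.

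**Figure D1:**
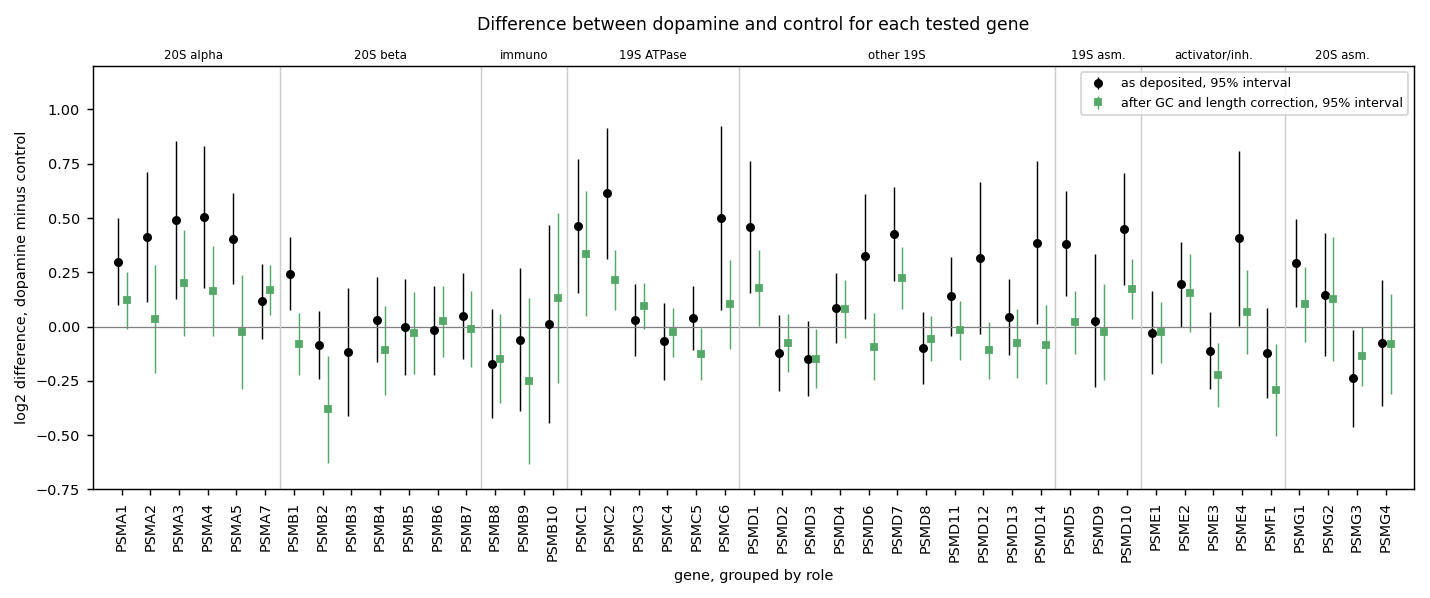
Log2 difference, dopamine minus control, of each of the 45 tested proteasome genes (limma on log2(FPKM + 0.5), 3 samples a group), grouped by role. Black circles are the values as deposited and green squares those after the correction for GC content and length, both with 95% intervals; PSMB3 has no square because it has no GC value. The circles of the alpha ring lie above 0, from 0.12 to 0.50, the beta ring lies from -0.12 to 0.24, and PSMC2 has the highest circle at 0.61.

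The depth behind these values was recovered from low pseudogene values, which fell on whole fragments (within 0.03 of a fragment) in 92.2% to 94.1% of cases. It came to between 19396000 and 24235000 fragments a library, so that 1 FPKM in a gene of 1 kilobase is 19.4 to 24.2 fragments. Markers of the labelled cell type were present: HAND2, a noradrenergic neuroblastoma marker, was at 114 to 139 FPKM in control and 121 to 140 FPKM in dopamine samples, and all 6 mesenchymal neuroblastoma markers were tested. Of 6 leukocyte markers 4 were in the table and none reached the filter, with summed levels of 0.0769 to 0.154 FPKM in control and 0.0248 to 0.0733 FPKM in dopamine samples. EPCAM and CDH1, which define epithelial cells, were at most 0.197 FPKM, although the keratins KRT8, KRT18 and KRT19 were present and the summed level of the epithelial list was 140 to 175 FPKM in control and 105 to 121 FPKM in dopamine samples. In bulk RNA, fewer cells expressing a gene and less of its RNA per cell cannot be told apart.

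Some member rows need care. PSMA1 and PSMA2 each have a second row whose FPKM is 3.04 and 1.74 times the first in all 6 libraries, so the 2 rows of a symbol carry 1 measurement and each gene was counted once. The level of these genes therefore depends on which row is read, while their log2 difference as deposited does not, apart from the effect of the pseudocount. After the GC and length correction described below, the difference does depend on the row. PSMA1 then had 0.12 in the row counted, with groups apart upwards, and 0.06 in the other row, with overlap. PSMA2 had 0.04 in the row counted and 0.11 in the other. PSMA6, an alpha subunit, was listed at 0.306, 0.414 and 0.336 FPKM in control replicates 1 to 3 and at 0.470, 0.510 and 0.679 FPKM in dopamine replicates 1 to 3. It did not reach the filter, and 38842 bases of its span are shared with KIAA0391, so reads of the 2 genes could have been split or discarded in counting and its level is uncertain. PSMC2 shares 620 bases with DNAJC2, PSMA1 6245 with COPB1, PSME3 8966 with BECN1 and PSMD2 10346 with EIF2B5, so reads could be shared there too. Further overlaps include PSMC5 with FTSJ3 (2861 bases), PSMB9 with TAP1 (8770), PSMG4 with TUBB2B (328) and PSMD14 with a pseudogene (513). PSMB11, the thymus-specific beta subunit, was listed at 0 in 5 samples and at 0.0766 FPKM in control replicate 3. PSMA8, the testis form of PSMA7, had no protein-coding row in the table.

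**Figure D2:**
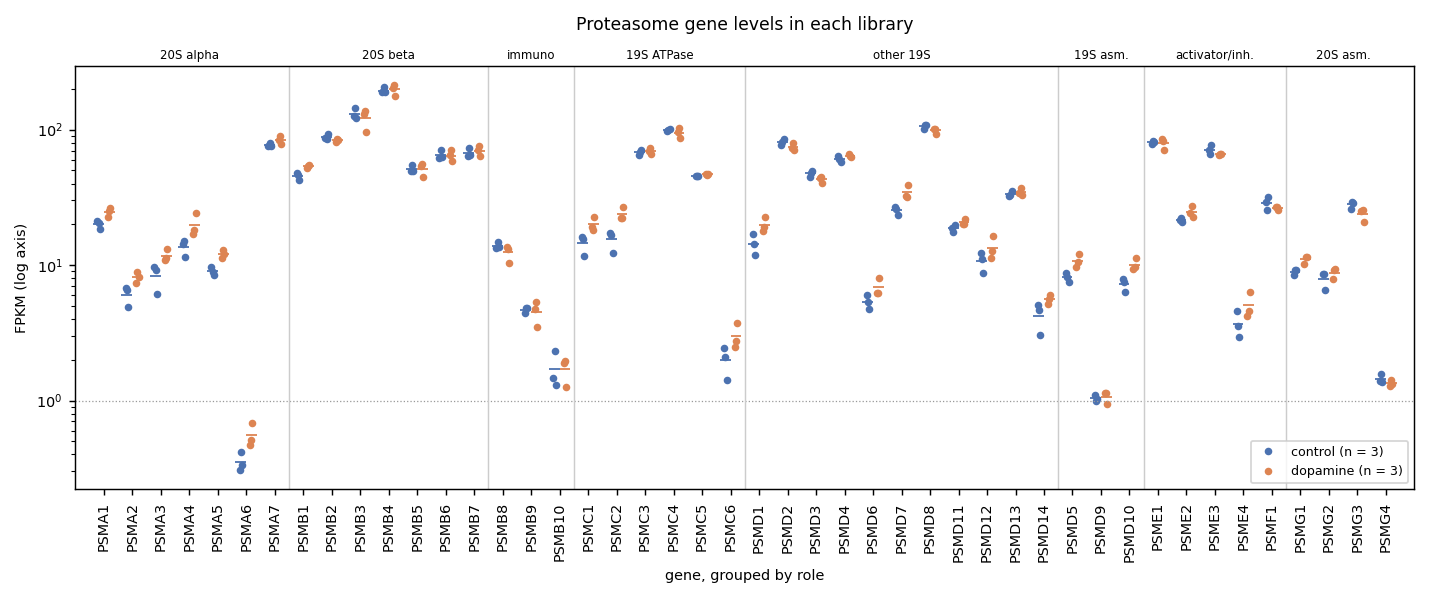
FPKM of each proteasome gene except PSMB11 in each of the 6 libraries on a log axis, with 3 blue points for control, 3 orange points for dopamine and a dash at each mean, grouped by role; the dotted line is the filter of 1 FPKM. The points of one gene lie close together compared with the distance between genes, whose means run from 1.054 FPKM (PSMD9) to 196 FPKM (PSMB4) among those tested.

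Promoter sequences of 5 members are printed here because the values below turn on these genes. PSMC2 and PSMD7 had the smallest p among the cap subunits, PSMD5 is a cap assembly factor with dopamine values above control, PSMB3 is a highly expressed beta subunit with overlapping groups, and PSMD3 had all its dopamine values below control. Each stretch is the 150 bases before the transcription start, 5′ to 3′ on the gene's strand, from RefSeq (GRCh38.p14). Capitals mark a CCAAT box (CCAAT) or the antioxidant response element (TGACNNNGC, or TGAGNNNGC with a TGAG core), on either strand.
PSMC2, chr7:103347493-103347642, plus strand: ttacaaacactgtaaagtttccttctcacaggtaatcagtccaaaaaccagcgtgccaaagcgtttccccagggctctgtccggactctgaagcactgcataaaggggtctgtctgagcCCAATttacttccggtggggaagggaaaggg
PSMD7, chr16:74296664-74296813, plus strand: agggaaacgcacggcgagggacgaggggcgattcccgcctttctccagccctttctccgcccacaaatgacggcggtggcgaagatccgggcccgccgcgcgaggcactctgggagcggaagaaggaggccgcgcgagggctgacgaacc
PSMD5, chr9:120842923-120843072, minus strand: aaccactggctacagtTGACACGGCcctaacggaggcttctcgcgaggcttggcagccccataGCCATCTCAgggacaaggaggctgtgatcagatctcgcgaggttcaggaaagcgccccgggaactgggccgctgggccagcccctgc
PSMB3, chr17:38752591-38752740, plus strand: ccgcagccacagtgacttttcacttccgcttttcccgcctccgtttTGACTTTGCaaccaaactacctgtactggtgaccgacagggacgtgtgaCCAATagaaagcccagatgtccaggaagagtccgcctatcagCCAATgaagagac
PSMD3, chr17:39980657-39980806, plus strand: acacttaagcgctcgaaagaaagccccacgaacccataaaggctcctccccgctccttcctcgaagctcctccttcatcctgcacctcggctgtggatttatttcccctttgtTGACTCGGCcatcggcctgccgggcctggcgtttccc

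The PSMC2 stretch has 1 CCAAT box and the PSMD7 stretch has none of the marked motifs. PSMD5 and PSMB3 each have a TGACNNNGC match before the start, as does PSMD3, so the same letters stand before a gene with higher, an overlapping and a lower set of dopamine values. RefSeq's table held 41 of the 47 promoters, each as 300 bases of which 250 lie before the start. TGACNNNGC was found on either strand in 13 of 41 (31.7%, Wilson 95% interval 19.6% to 47.0%), against 13.4% of 35116 promoters in the table and 15.2% of 7878 promoters of tested protein-coding genes. TGAGNNNGC was also found in 13 of 41 (31.7%, interval 19.6% to 47.0%), against 18.3% of all promoters and 21.0% of those tested. CCAAT was found in 19 of 41 (46.3%, interval 32.1% to 61.3%), against 34.6% and 37.0%, so for these 2 motifs the share of tested genes lies within the interval. The heat shock element core GAANNTTC and the cAMP response element TGACGTCA were found in 0 of 41 (interval up to 8.57%), against 6.77% and 1.85% of all promoters and 4.42% and 3.55% of those tested. The E box CACGTG was found in 3 of 41 (7.32%, interval 2.52% to 19.4%), against 7.26% and 10.3%. Of the members tested, the 13 with TGACNNNGC had a median log2 difference of 0.15, with dopamine values all above control in 4, and the 26 without it had 0.09 and 14. With TGAGNNNGC the median was 0.29, with 6 of 13 such genes, against 0.09 and 12 of 26 without it. With CCAAT it was 0.17, with 10 of 18, against 0.14 and 8 of 21. After the GC and length correction described below, the medians with and without TGAGNNNGC were -0.025 and -0.017. For TGACNNNGC they were -0.0022 and -0.027, and for CCAAT -0.030 and -0.017. A match to letters is a description and does not show that a factor binds there.

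Among the alpha subunits, which form the outer rings and the gate of the barrel, all 6 tested genes had a higher mean with dopamine (against 60.0% of all genes), and 5 of 6 had dopamine values above every control value (against 24.4% of all genes). Their median log2 difference was 0.41, and 0.14 after the correction for GC content and length described below. The summed level of the ring was 126 to 140 FPKM in control and 153 to 167 FPKM in dopamine samples. This sum takes the lower row of PSMA1 and of PSMA2 and the uncertain level of PSMA6, so its size depends on that choice. None of the 6 tested genes passed the adjusted threshold.

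PSMA5 (ENSG00000143106.8, chromosome 1, 109941653 to 109969062 on hg19) was at 9.65, 8.83 and 8.49 FPKM in control replicates 1 to 3 and at 11.2, 12.9 and 12.1 FPKM in dopamine replicates 1 to 3. The groups did not overlap, and the log2 difference was 0.40 (SE 0.093, limma adjusted p = 0.11). PSMA4 (chromosome 15, 78832747 to 78841604) stood at 14.3, 15.1 and 11.5 FPKM in control and at 16.9, 18.03 and 24.2 FPKM in dopamine samples. Its log2 difference of 0.50 (SE 0.146) was the largest of the ring, with control replicate 3 lowest and dopamine replicate 3 highest. PSMA1 was at 21.2, 20.5 and 18.5 FPKM in control and at 22.7, 25.3 and 26.3 FPKM in dopamine samples, a log2 difference of 0.30. PSMA2 and PSMA3 had log2 differences of 0.41 and 0.49, again with no overlap between groups and with control replicate 3 lowest. PSMA7 was the most abundant alpha subunit, at 75.8, 79.2 and 76.2 FPKM in control and 83.5, 89.7 and 77.9 FPKM in dopamine samples. Its groups overlapped, with a log2 difference of 0.12 (limma adjusted p = 0.296).

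The beta subunits of the standard core, which include the 3 cutting subunits PSMB5, PSMB6 and PSMB7, had the highest median level of the roles, 68.8 FPKM, and centred on 0. Their median log2 difference was -0.0021, and 3 of 7 had a higher mean of log2(FPKM + 0.5) (against 60.0% of all genes). The summed level was 622 to 680 FPKM in control and 581 to 691 FPKM in dopamine samples. The difference between the alpha and beta rings was not tested.

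PSMB5, the chymotrypsin-like site and the main target of proteasome inhibitor drugs, was at 49.9, 54.8 and 49.4 FPKM in control and at 53.8, 56.2 and 44.5 FPKM in dopamine samples. Dopamine samples held both the highest and the lowest value, and the 95% interval of the log2 difference ran from -0.22 to 0.22. PSMB6, the caspase-like site, was at 61.9, 70.8 and 62.6 FPKM in control and at 64.6, 70.3 and 58.3 FPKM in dopamine samples. The trypsin-like PSMB7 was at 64.0, 73.5 and 65.3 FPKM in control and at 70.6, 75.3 and 63.9 FPKM in dopamine samples. Both cutting subunits had overlapping groups, with log2 differences of -0.02 and 0.05. PSMB4, the member with the highest mean, was at 189, 205 and 188 FPKM in control and at 205, 213 and 179 FPKM in dopamine samples, also overlapping.

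PSMB1 was the beta subunit with groups apart upwards. It was at 47.95, 45.9 and 42.2 FPKM in control and at 52.1, 54.3 and 54.8 FPKM in dopamine samples, a log2 difference of 0.24 (SE 0.0753, limma adjusted p = 0.11). PSMB2 had its dopamine values below control, at 87.0, 85.7 and 92.7 FPKM in control and 81.6, 84.9 and 83.6 FPKM in dopamine samples. Its log2 difference was small, -0.08, and the nearest values of the groups were 85.7 and 84.9 FPKM. PSMB3 had a log2 difference of -0.12 that rested on dopamine replicate 3, at 96.7 FPKM against 131 and 137 FPKM in the other dopamine samples. Without that library its log2 difference was 0.04.

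Immunoproteasome subunits take the place of the standard cutting subunits in cells exposed to interferon. PSMB8, which replaces PSMB5, was at 13.4, 14.8 and 13.6 FPKM in control and at 13.6, 13.2 and 10.4 FPKM in dopamine samples, a log2 difference of -0.17 (limma adjusted p = 0.292). PSMB9, which replaces PSMB6, was at 4.41, 4.84 and 4.79 FPKM in control and at 4.73, 5.37 and 3.47 FPKM in dopamine samples. PSMB10, which replaces PSMB7, was at 1.47, 2.34 and 1.30 FPKM in control and at 1.90, 1.95 and 1.26 FPKM in dopamine samples. In all 3 genes the groups overlapped and dopamine replicate 3 was lowest.

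The ratio of each immunosubunit to the standard subunit it replaces, both in FPKM, put these levels in context. PSMB8 stood at 0.269, 0.270 and 0.275 of PSMB5 in control and at 0.254, 0.235 and 0.233 of it in dopamine samples. These ratios did not overlap between groups, although both genes overlapped on their own. The ratios were not tested, and how often ratios of other gene pairs lie apart was not computed. PSMB9 was on average 0.0720 ± 0.00411 of PSMB6 in control and 0.0697 ± 0.00893 in dopamine samples (SD, n = 3), and PSMB10 was 0.0249 ± 0.00614 and 0.0242 ± 0.00387 of PSMB7. Both ratios overlapped between groups. Parts of PSMB8 and PSMB9 lie over each other on chromosome 6, with 568 shared bases.

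**Figure D3:**
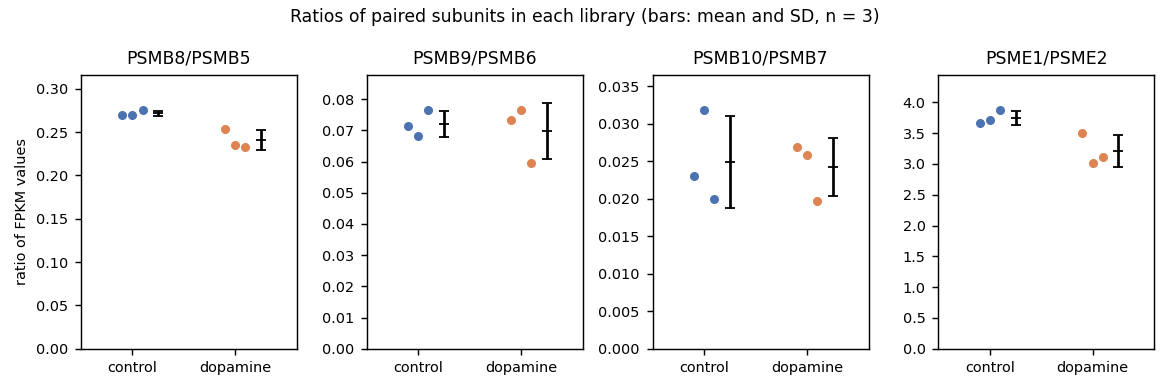
Ratio of FPKM within each library for 4 pairs of subunits, with 3 points for control and 3 for dopamine and the mean with its SD; each axis starts at 0. The PSMB8 to PSMB5 ratio is 0.269 to 0.275 in control and 0.233 to 0.254 in dopamine samples, and the PSME1 to PSME2 ratio is also lower in every dopamine sample.

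The ATPases of the 19S cap form the ring that unfolds substrates. Of 6 genes, 5 had a higher mean (against 60.0% of all genes) and 4 had groups apart upwards (against 24.4%). Their median log2 difference was 0.25, and 0.10 after the GC and length correction. PSMC2 (ENSG00000161057.6, chromosome 7, 102984701 to 103009842 on hg19), whose promoter is printed above, had the largest difference of any member. It was at 17.4, 16.8 and 12.4 FPKM in control and at 22.2, 22.4 and 26.9 FPKM in dopamine samples, a log2 difference of 0.61 (SE 0.134, limma adjusted p = 0.11). Every dopamine value lay clear of the control values, and control replicate 3 was the lowest library. PSMC1 was at 16.2, 15.7 and 11.6 FPKM in control and at 19.1, 18.2 and 22.8 FPKM in dopamine samples, a log2 difference of 0.46 (SE 0.137). PSMC6, the least abundant ATPase, was at 2.43, 2.11 and 1.43 FPKM in control and at 2.502, 2.76 and 3.75 FPKM in dopamine samples. Its log2 difference was 0.50 (limma adjusted p = 0.125), with nearly touching groups. PSMC3, PSMC4 and PSMC5 were more abundant, and had log2 differences of 0.03, -0.07 and 0.04. The ATPases enter the ring in equal number, while the mean levels of their RNA ran from 2.49 FPKM for PSMC6 to 97.3 FPKM for PSMC4.

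The other subunits of the 19S cap form its base scaffold and its lid. Their median log2 difference was 0.14 over 11 genes, and -0.08 after the GC and length correction. Groups were apart upwards in 5 and downwards in 1 (against 24.4% and 14.1% of all genes). PSMD7 (ENSG00000103035.6, chromosome 16, 74330673 to 74340186 on hg19), the lid partner of the deubiquitinase PSMD14, was at 26.6, 26.0 and 23.6 FPKM in control and at 32.2, 32.0 and 38.9 FPKM in dopamine samples. Its groups were well apart, with a log2 difference of 0.42 (SE 0.0962, limma adjusted p = 0.11). PSMD1, a large scaffold subunit of the base, was at 17.0, 14.3 and 11.9 FPKM in control and at 17.7, 19.2 and 22.7 FPKM in dopamine samples, a log2 difference of 0.46. PSMD6 was at 6.02, 5.30 and 4.76 FPKM in control and at 6.25, 6.27 and 8.01 FPKM in dopamine samples, a log2 difference of 0.32 (limma adjusted p = 0.132). PSMD14, which cuts ubiquitin chains off the substrate, had a log2 difference of 0.39 and PSMD12 of 0.32, and both were below 0 after the GC and length correction (-0.08 and -0.11).

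Other cap subunits lay nearer 0 or below it. PSMD2, the other large scaffold subunit, had a log2 difference of -0.12, opposite in sign to PSMD1, and PSMD8 had -0.10. PSMD3, whose promoter is also printed above, was at 45.0, 48.3 and 49.7 FPKM in control and at 43.8, 44.9 and 40.2 FPKM in dopamine samples. Its groups were apart by a narrow margin, with a log2 difference of -0.15 (limma adjusted p = 0.205). PSMD4, a ubiquitin receptor, had 0.08, PSMD11 had 0.14 and PSMD13 had 0.04.

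Dedicated chaperones build the cap and the core. PSMD10 (gankyrin), a cap assembly factor, was at 7.95, 7.49 and 6.29 FPKM in control and at 9.32, 9.65 and 11.2 FPKM in dopamine samples. Its groups did not overlap, and the log2 difference was 0.45 (SE 0.115, limma adjusted p = 0.11). PSMD5, a further cap assembly factor, was at 8.67, 8.23 and 7.48 FPKM in control and at 9.60, 10.6 and 12.1 FPKM in dopamine samples, a log2 difference of 0.38. An antisense gene, PSMD5-AS1, covers 18157 bases of its span, at 0.907 FPKM in control on average, and without a stated strand setting the reads of the pair cannot be told apart. The tested member with the lowest mean was the cap assembly factor PSMD9, at 1.09, 0.992 and 1.03 FPKM in control and at 1.13, 1.14 and 0.943 FPKM in dopamine samples, with overlapping groups.

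The core chaperones differed in direction. PSMG1, which works as a pair with PSMG2 on the alpha ring, was at 8.44, 9.14 and 9.17 FPKM in control and at 10.1, 11.5 and 11.5 FPKM in dopamine samples, a log2 difference of 0.29 (limma adjusted p = 0.11). PSMG2 was at 8.63, 8.59 and 6.53 FPKM in control and at 7.84, 9.18 and 9.31 FPKM in dopamine samples, and overlapped. PSMG3, which works with PSMG4, was at 26.1, 29.4 and 28.8 FPKM in control and at 25.2, 25.5 and 20.7 FPKM in dopamine samples. Its log2 difference of -0.24 (SE 0.0987, limma adjusted p = 0.139) was the lowest of all members and the only one with an unadjusted p under 0.05 below 0. PSMG4 was at 1.39, 1.56 and 1.36 FPKM in control and at 1.28, 1.41 and 1.32 FPKM in dopamine samples, with overlap. The median log2 difference was 0.38 over the 3 cap assembly factors and 0.04 over the 4 core chaperones. After the GC and length correction these medians were 0.02 and 0.01.

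The alternative activators dock on the barrel in place of the 19S cap. PSME1 and PSME2 together form the interferon-responsive activator PA28. PSME1 was at 78.8, 82.2 and 81.1 FPKM in control and at 84.8, 82.6 and 70.5 FPKM in dopamine samples, and PSME2 at 21.5, 22.2 and 20.9 FPKM in control and 24.3, 27.5 and 22.7 FPKM in dopamine samples. PSME2 was apart upwards by a narrow margin, with a log2 difference of 0.19 (limma adjusted p = 0.158), and PSME1 overlapped. PSME1 stood at 3.66, 3.71 and 3.87 times PSME2 in control and at 3.50, 3.01 and 3.11 times in dopamine samples, which did not overlap. This ratio was not tested either. PSME3, the nuclear activator, was at 70.3, 65.6 and 77.7 FPKM in control and at 65.0, 66.3 and 65.9 FPKM in dopamine samples. PSME4, the nuclear activator PA200, was at 4.55, 3.56 and 2.93 FPKM in control and at 4.19, 4.604 and 6.34 FPKM in dopamine samples. Its log2 difference of 0.41 (limma adjusted p = 0.153) came with overlapping groups. The inhibitor PSMF1 was at 29.05, 25.6 and 32.0 FPKM in control and at 26.7, 27.0 and 25.5 FPKM in dopamine samples, a log2 difference of -0.12.

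The members' differences followed the GC content of their transcripts. GC content was taken from the longest transcript of each gene in GENCODE v29, which held 44 of the 45 tested members and not PSMB3. Across these 44 genes, which share the same 6 libraries and are not independent, the log2 difference correlated with GC content at Pearson r = -0.77 and Spearman rho = -0.72, and across 11579 genes of the table r was -0.75. The 14 members with the lowest GC content, 32.0% to 43.6%, had a median log2 difference of 0.41, and the 3279 tested genes in that GC range had 0.38. The 14 members with the highest, 52.2% to 60.1%, had a median of -0.05, and the 2951 genes in that range had -0.09. In between, 16 members had 0.05 and 3218 genes 0.14. Groups were apart upwards in 11 of 14 members of the lowest range (78.6%, against 49.2% of all genes in that range), in 8 of 16 between (50.0%, against 28.4%) and in 0 of 14 of the highest (against 4.81%).

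The order held within some roles and not others. In the alpha ring PSMA7 had the highest GC content, 55.5%, and the smallest difference, while the other tested alpha subunits lay between 36.7% and 46.2%. Among the beta subunits with a GC value PSMB1 had the lowest, 40.7%, and was the gene apart upwards. PSMB2 departed from the order, with 43.6% GC and a log2 difference of -0.08. So did the immunosubunits, where PSMB10 had both the highest GC content, 60.1%, and the highest difference, 0.01, and the activators, where PSME2 (51.3%) lay above PSMF1 (47.5%) and PSME3 (49.1%).

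**Figure D4:**
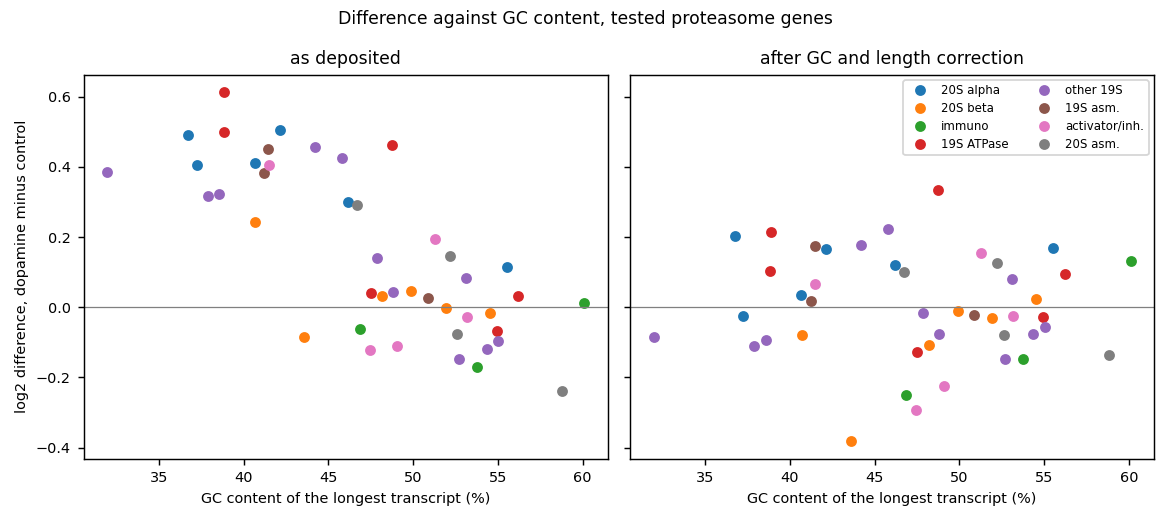
Log2 difference, dopamine minus control, of 44 proteasome genes against the GC content of the longest transcript (percent), before (left) and after (right) the correction for GC content and length; each point is a gene, coloured by role. Before the correction the points slope down (r = -0.77), and after it they do not (r = -0.07).

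After a smooth fit on GC content and length was removed from each library, the median log2 difference of the 44 members was -0.02 and that of all genes -0.00. Limma then called 0 of 44 (0.225% of 11579 genes), with an unadjusted p under 0.05 in 6 higher and 6 lower members (13.6% each, against 8.37% and 8.45% of all genes). Groups were apart upwards in 7 members (15.9%) and downwards in 8 (18.2%), against 12.0% of all genes in each direction. PSMA1 was among the 7 only in the row counted. The alpha ring had a median of 0.14, the ATPases 0.10, the beta ring -0.06 and the other cap subunits -0.08. PSMC1 had 0.34 after the correction, PSMD7 0.22, PSMC2 0.21 and PSMD10 0.17, with groups still apart upwards in each. PSMA5, among the smallest p before, had -0.02. In 11 members a difference above 0 turned below 0, among them PSMD14, PSMD6, PSMD12 and PSMB1, and PSMB6 turned the other way. PSMB2 had -0.38, PSMF1 -0.29 and PSME3 -0.22, each with groups apart downwards. The slope of the members' values on GC content, per 10 points of GC, was -0.0015, 0.14 and 0.26 in control replicates 1 to 3 and -0.03, -0.06 and -0.31 in dopamine replicates 1 to 3. It was lower in every dopamine sample, so the GC slope and the treatment cannot be told apart in these samples.

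The replicates numbered 3 stood at the ends of this range. Control replicate 3 was the lowest of the 6 libraries in 20 of 45 members, and dopamine replicate 3 was the highest in 19 and the lowest in 16. Without these 2 libraries, 0 of 45 members were called, 14 lay higher with an unadjusted p under 0.05, and the median log2 difference was 0.10. Of the nuclear-retained RNAs, NEAT1, MALAT1 and TUG1 all had a higher mean with dopamine (against 60.0% of all genes), though none was called. Groups were apart upwards in MALAT1 and overlapped in NEAT1 and TUG1. The median log2 difference of the 3 RNAs was 0.48 as deposited and 0.18 once corrected for GC content and length. The summed level of the nuclear-retained list was 9.64 to 15.2 FPKM in control and 15.0 to 22.4 FPKM in dopamine samples. These ranges overlapped. The part of nuclear RNA in the members' differences was not tested.

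**Figure D5:**
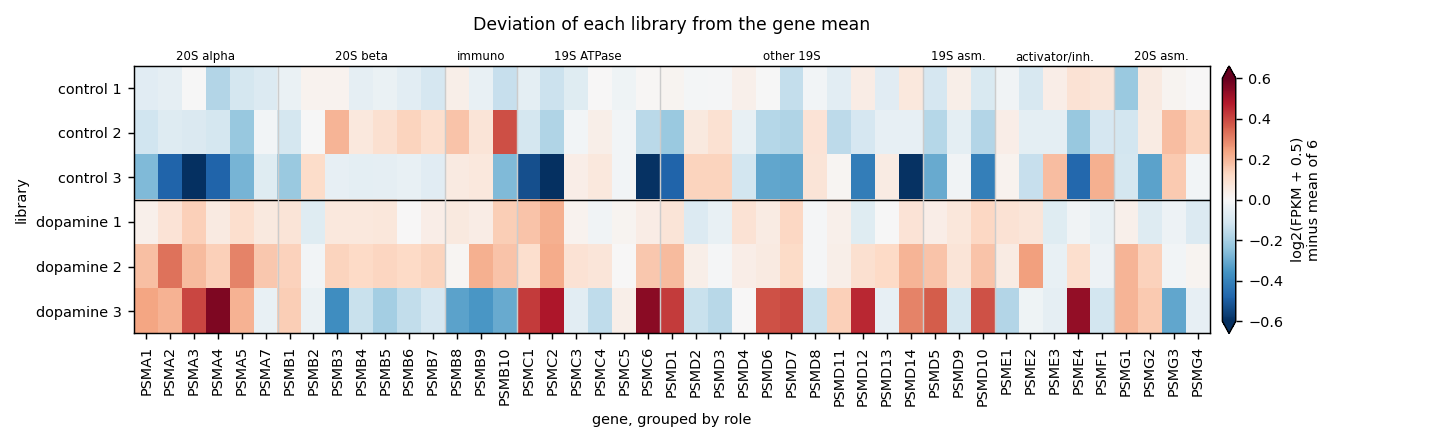
Deviation of log2(FPKM + 0.5) from the gene's mean over the 6 libraries, for each library (rows) and each tested proteasome gene (columns, grouped by role); blue is below and red above the mean. The colour scale ends at 0.6 in either direction, which 2 values exceed, both in control replicate 3 (blue, PSMA3 and PSMC2). The lowest value is -0.645, and the highest is 0.56, for PSMA4 in dopamine replicate 3 (red).

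The precision of the comparison bounds what was seen. The median SE of the members' log2 differences was 0.0962, and the 95% interval lay within 1.5-fold in either direction for 30 of 45 members. After the GC and length correction it did so for 41 of 44.

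Partners of the proteasome that carry other names were described in the same way. Of 15 tested genes, 0 were called, 4 lay higher and 1 lower with an unadjusted p under 0.05 (against 24.4% and 8.05% of all genes), and the median log2 difference was 0.24 (-0.07 after the GC and length correction). AKIRIN2, which brings proteasomes into the nucleus, was at 23.6, 22.9 and 25.5 FPKM in control and at 26.4, 30.9 and 31.2 FPKM in dopamine samples, a log2 difference of 0.29 before and 0.30 after the correction. POMP, the maturation factor of the core, was at 39.5, 49.6 and 27.9 FPKM in control and at 43.6, 45.8 and 44.6 FPKM in dopamine samples, with overlap. ADRM1, a ubiquitin receptor of the cap, was at 104, 123 and 110 FPKM in control and at 98.9, 103 and 86.4 FPKM in dopamine samples, a log2 difference of -0.22 before and -0.06 after the correction. ZFAND5, a proteasome activator, had 0.38 before and -0.01 after the correction, and ZFAND2A, a stress-induced relative, 0.28 and 0.18.

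Of the NRF1 pathway, 12 genes were tested and 0 were called. At an unadjusted p under 0.05, 4 lay higher and 0 lower (against 24.4% and 8.05% of all genes). NFE2L1 itself was at 98.6, 92.0 and 104 FPKM in control and at 97.7, 94.1 and 95.8 FPKM in dopamine samples. The groups overlapped, and RNA level says nothing of the protein's processing, by which this factor is mainly controlled. NFE2L2 was at 5.91, 4.69 and 3.32 FPKM in control and at 5.96, 7.11 and 7.44 FPKM in dopamine samples, a log2 difference of 0.54 (limma adjusted p = 0.113) and 0.31 after the correction. SYVN1, the ubiquitin ligase HRD1 of the endoplasmic reticulum, was at 14.6, 14.8 and 15.3 FPKM in control and at 18.9, 19.02 and 18.6 FPKM in dopamine samples. Its log2 difference was 0.33 (limma adjusted p = 0.11) and 0.41 after the GC and length correction, where it was called (limma adjusted p = 0.0269). BACH1, a repressor that competes with NRF2, had 0.61 before and 0.19 after the correction, and DDI2, the protease that activates NRF1, had 0.45 and 0.15.

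Of the genes for ubiquitin and its activation, 15 were tested and 0 were called. With an unadjusted p under 0.05, 5 lay higher and 2 lower (against 24.4% and 8.05% of all genes). The median log2 difference was 0.07 (-0.08 after the correction). The 2 lower genes were UBA1, the main ubiquitin-activating enzyme (-0.21, and -0.11 corrected), and UBE2S (-0.22, and -0.15 corrected). UBE2N had 0.36 before and 0.01 after the correction, and UBE2D3 had 0.34 and -0.08. Among the ubiquitin receptors and shuttles, 15 were tested and 0 were called. With an unadjusted p under 0.05, 7 lay higher and 1 lower (against 24.4% and 8.05% of all genes). Groups were apart upwards in 3 and downwards in 3 (against 24.4% and 14.1%). The median log2 difference was 0.15 (-0.03 after the correction). NBR1, a receptor of selective autophagy, was at 6.28, 4.72 and 4.32 FPKM in control and at 6.76, 6.11 and 8.89 FPKM in dopamine samples. Its log2 difference was 0.47 with overlapping groups (limma adjusted p = 0.117) and 0.21 after the correction. RAD23B, a shuttle that carries ubiquitinated proteins to the cap, had 0.23 before and -0.10 after the correction. SQSTM1 was at 61.3, 67.0 and 62.3 FPKM in control and 72.3, 78.3 and 62.4 FPKM in dopamine samples, and VCP, the segregase that extracts ubiquitinated proteins, at 97.1, 91.7 and 97.1 FPKM in control and 106, 105 and 92.8 FPKM in dopamine samples. The groups overlapped in both genes.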

How the data were processed

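RNA-seq of 3 control and 3 dopamine samples was analysed from 1 deposited table of FPKM per gene, made by the authors. The submitters' processing notes name STAR 2.7.1a, HTSeq 0.11.2, FastQC 0.11.9 and DESeq2 1.40.2, with the build hg19, without their roles. The kit in the labels' protocols is a stranded total-RNA kit. Not given in the sources used here: the annotation, the counting options (strand among them) and the formula of FPKM. Depth was recovered from 2797 pseudogenes.

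Genes with a mean of at least 1 FPKM were tested with limma 3.58.1 (R 4.3.3) with an intensity trend on log2(FPKM + 0.5), two-sided, Benjamini-Hochberg adjusted over 11791 genes, threshold 0.05. The script was tested on simulated data. Fold changes are on the log2(FPKM + 0.5) scale, which understates low genes. The GC and length correction used GENCODE v29 transcripts matched by gene ID (98.2% of tested genes) and a loess span of 0.5. Every member is named. Values in every sample are given for up to 3 members a role with the smallest p and for the cutting, immuno, assembly and activator genes. Members and lists were chosen with earlier results of these data known. PSMA1 and PSMA2 were counted once each. Alternatives covered pseudocount, filter, scaling, weights, replicate block and left-out libraries. Exact tests of 3 against 3 samples cannot go below p = 0.1 and were not used. Results of 2 genes of the marker and ubiquitin lists are not reported here.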

Additional observations from a re-analysis of the deposited data

How the results depend on the processing

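The number of members called was 0 in all settings tried other than sample quality weights and leaving out control replicate 1, each with 14. Leaving out 1 library at a time gave 0 to 14 called, 13 to 18 higher and 0 to 1 lower with an unadjusted p under 0.05, 19 to 23 with groups apart upwards, 3 to 6 with groups apart downwards, and a median log2 difference of 0.06 to 0.11. Median-of-ratios scaling moved the lower members at an unadjusted p under 0.05 to 2, those apart downwards to 6 and the median to -0.0071. With no trend in the prior variance there were 0 lower, and without both replicates numbered 3 (chosen after seeing the data) also 0. The GC and length correction gave 6 higher, 6 lower, 7 apart upwards, 8 apart downwards and a median of -0.020. Correlations of deviations from the group means were -0.203, 0.282 and -0.367 for same-numbered replicates. For differently numbered ones they ran from -0.378 to 0.419. Such scattered values cannot decide whether the numbers pair the samples, and the labels do not say. With the replicate block, 0 members were called, with 13 higher and 0 lower with an unadjusted p under 0.05, and 3 genes were called in the table in place of 12. The replicate block with the GC and length correction gave 6 higher, 5 lower, 7 apart upwards, 8 apart downwards and a median of -0.020.

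Single genes could change sign, and the cause was not tested. Under the GC and length correction, alone or with the replicate block, these included genes well away from 0 before it, such as PSMA5 (0.40), PSMD14 (0.39), PSMD6 (0.32), PSMD12 (0.32) and PSMB1 (0.24). The corrected values of all that changed sign, among the tested members and the other genes named, were PSMA5 (-0.025), PSMB1 (-0.080), PSMB4 (-0.11), PSMB6 (0.024), PSMB7 (-0.010), PSMC5 (-0.13), PSMD11 (-0.017), PSMD12 (-0.11), PSMD13 (-0.076), PSMD14 (-0.084), PSMD6 (-0.093), PSMD9 (-0.024), NFE2L1 (0.025), POMP (-0.085), RAD23B (-0.095), UBE2D1 (-0.062), UBE2D3 (-0.081), UBQLN1 (-0.10) and ZFAND5 (-0.013). Median-of-ratios scaling gave PSMB10 -0.058, PSMB4 -0.059, PSMB7 -0.043, PSMC3 -0.060, PSMC5 -0.051, PSMD13 -0.047, PSMD4 -0.0071, PSMD9 -0.034 and VCP -0.0071. TPM scaling gave PSMB5 0.0041. Quantile normalization gave PSMB10 -0.15, PSMB5 0.044, PSMB6 0.011, PSMD9 -0.12 and PSME1 0.021. Sample quality weights gave PSMB10 -0.10, PSMB5 0.026, PSMB9 0.052, PSME1 0.019 and NFE2L1 0.020. Leaving out both replicates numbered 3 gave PSMB5 0.071, PSMB6 0.026, PSMB9 0.11, PSMC4 0.0066, PSME1 0.056, PSMG2 -0.020 and NFE2L1 0.0092, and PSMD13, without a change of sign, 0.12. Leaving out 1 library gave ranges of -0.12 to 0.21 for PSMB10, -0.21 to 0.039 for PSMB3, -0.019 to 0.11 for PSMB4, -0.068 to 0.098 for PSMB5, -0.082 to 0.052 for PSMB6, -0.0073 to 0.11 for PSMB7, -0.18 to 0.098 for PSMB9, -0.0054 to 0.070 for PSMC3, -0.12 to -0.0080 for PSMC4, -0.0045 to 0.080 for PSMD13, -0.0052 to 0.087 for PSMD9, -0.079 to 0.052 for PSME1, 0.022 to 0.22 for PSMG2 and -0.079 to 0.0086 for NFE2L1. Depth limits the members near 1 FPKM most.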

Other observations

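Some rows have names that begin like a proteasome gene but fall outside the pattern. PSMC3IP, a meiotic recombination factor named for its binding to PSMC3, had a mean of 6.43 FPKM without and 6.23 FPKM with dopamine. PSMG3-AS1, a noncoding RNA beside PSMG3, had 2.24 and 2.43 FPKM, and PSMD5-AS1 had 0.907 and 1.13 FPKM. Of 18 pseudogenes of proteasome genes, 1 reached the filter, PSME2P2, with a mean of 0.944 FPKM without and 1.30 FPKM with dopamine.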
